A study of Homo sapiens with 10 samples.

Results

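The imprinted genes of chromosome band 11p15.5 other than H19 were examined in ChIP-seq peak lists for CTCF and 3 histone marks from HEK293T cells, a human embryonic kidney line. The 7 genes were IGF2, INS, KCNQ1, KCNQ1OT1, CDKN1C, PHLDA2 and SLC22A18, of 62700 genes in the annotation (GENCODE release 44, genome build hg38). They were taken from a list of imprinted genes, and each was given a window of its gene body plus 20 kb on each side. The windows merged into 2 regions of chromosome 11. The IGF2–INS region (chr11:2109112-2181221, 72.1 kb) held 2 of the genes, and the KCNQ1–PHLDA2 region (chr11:2424654-2949420, 525 kb) held the other 5. The gap between the regions was 243 kb, and H19 ended 125 kb below IGF2.

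The study asked how the level of CGGBP1, a protein that binds CGG-rich and other repeat DNA, bears on where CTCF sits. CTCF was mapped in cells with endogenous CGGBP1 (CT, transduced with a non-targeting shRNA), in cells with CGGBP1 shRNA (KD) and in cells overexpressing CGGBP1 (OE). All constructs were delivered by lentivirus, the overexpressed CGGBP1 carried a FLAG tag, and puromycin selection is given for the CT and KD cells. Whether the OE cells were selected is not given in the sources used here, and CT is a control for the shRNA rather than for the overexpression construct. H3K4me3, H3K9me3 and H3K27me3 were mapped in CT and KD only, and an input library was sequenced without antibody. Each CTCF library gave an unmasked list and a second list called on the repeat-masked genome, written here as RM. Each condition was 1 library, so no difference between lists has a replicate check, and no test was made. The lists hold positions only, with no height, score or read depth, so they do not give the strength of a peak or the allele it came from.

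At an imprinted gene, the copy inherited from one parent is expressed and the other is silent. IGF2, a fetal growth factor, is normally read from the paternal copy, and CTCF bound to the unmethylated control region beside H19 insulates the maternal IGF2 promoters from shared enhancers. The long noncoding RNA KCNQ1OT1 is read from the paternal copy of an intronic control region inside KCNQ1, against the direction of that gene, and silences neighbouring genes on the same chromosome copy. Among those neighbours are CDKN1C, an inhibitor of cyclin-dependent kinases, PHLDA2, a regulator of placental growth, and SLC22A18, a membrane transporter. KCNQ1 encodes a potassium channel and INS encodes insulin. H3K4me3 marks active or poised starts, H3K27me3 is the Polycomb mark, and H3K9me3 marks heterochromatin. Whether these genes are imprinted in HEK293T cells was not measured here.

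The CTCF peaks of the 6 lists fell at 17 separate places, each formed by merging overlapping peaks and numbered in chromosome order. A CTCF motif of 14 bases, learned from the RM peaks that CT shared with KD and OE, was found at 15 of the 17 places at a score of at least 8.33 bits (p below 0.0001 for a random 14-base word). The motif was searched on both strands. The best site of the places that the comparisons turn on is printed below with 20 bases on each side, 5′ to 3′ on the strand of the motif, and capitals mark the motif.

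The first set lies in introns of IGF2. Place 1 carried a peak in all 6 lists, places 2 and 3 had no peak in either CT list, and place 4 was absent from CT RM only.

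Place 1, minus strand, motif at chr11:2150365-2150378: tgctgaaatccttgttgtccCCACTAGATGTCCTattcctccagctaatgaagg
Place 2, minus strand, motif at chr11:2151603-2151616: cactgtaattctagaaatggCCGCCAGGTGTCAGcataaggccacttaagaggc
Place 3, minus strand, motif at chr11:2152137-2152150: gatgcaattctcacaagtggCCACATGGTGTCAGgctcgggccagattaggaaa
Place 4, minus strand, motif at chr11:2156631-2156644: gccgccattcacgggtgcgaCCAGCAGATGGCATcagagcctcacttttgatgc

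The motif scored 9.19 bits at place 1, 15.12 bits at place 2, 11.56 bits at place 3 and 17.04 bits at place 4. The place found in every list thus had the lowest score of these. Places 2 and 3 were the same at 29 of the 54 printed bases, and so were places 6 and 17, which lie in different regions. The sequences are lined up on the motif, so part of any such match comes from it.

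The second set lies in and below KCNQ1. Place 7 was in the 3 unmasked lists and KD RM, places 9 and 10 were in all 6 lists, and place 11 was in CT only.

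Place 7, plus strand, motif at chr11:2428379-2428392: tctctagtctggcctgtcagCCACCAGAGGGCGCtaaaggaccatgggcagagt
Place 9, minus strand, motif at chr11:2531556-2531569: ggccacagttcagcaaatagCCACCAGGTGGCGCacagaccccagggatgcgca
Place 10, plus strand, motif at chr11:2532838-2532851: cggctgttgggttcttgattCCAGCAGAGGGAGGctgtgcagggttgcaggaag
Place 11, plus strand, motif at chr11:2540230-2540243: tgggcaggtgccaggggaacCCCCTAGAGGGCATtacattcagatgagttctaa

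Places 7 and 9 held the strongest motifs of all 17 places, at 22.99 and 22.88 bits. Place 10 scored 18.13 bits and place 11 scored 13.41 bits.

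The third set lies beside CDKN1C, SLC22A18 and PHLDA2. Place 15 was in the 3 unmasked lists, place 16 in KD only, and place 17 in every list except unmasked CT.

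Place 15, minus strand, motif at chr11:2888550-2888563: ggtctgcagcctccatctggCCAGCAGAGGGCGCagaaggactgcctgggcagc
Place 16, minus strand, motif at chr11:2892237-2892250: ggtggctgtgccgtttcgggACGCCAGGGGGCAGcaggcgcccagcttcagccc
Place 17, plus strand, motif at chr11:2930879-2930892: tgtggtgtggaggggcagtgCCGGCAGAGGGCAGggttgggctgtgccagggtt

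The scores were 22.00 bits at place 15, 16.30 bits at place 16 and 18.32 bits at place 17. A CpG, the dinucleotide that DNA methylation acts on, lay within the 14 bases at 7 of the 15 best sites, among them those of places 2, 7, 9, 15, 16 and 17. None of places 1, 3, 4, 10 and 11 had one there. The learned motif itself favours C at position 12 and G at position 13, where the CpG of places 7, 9 and 15 lay. At places 2, 5, 16 and 17 the CpG lay at positions 2 and 3, and the motif favours A rather than G at position 3. The share with a CpG was not computed over other sites.

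More CTCF places were listed at these genes in KD and OE than in CT. The unmasked lists held 7 peaks for CT, 10 for KD and 14 for OE within the 2 regions. Per megabase that was 11.7 for CT, 16.8 for KD and 23.5 for OE, against 13.5, 14.9 and 14.9 over the main chromosomes and 14.4, 16.5 and 16.3 over chromosome 11. The regions were therefore below the genome rate in CT, close to the chromosome 11 rate in KD and above both rates in OE, on small counts in each. With a flank of 50 kb in place of 20 kb the counts were 12, 17 and 17, so KD and OE were then equal. By the labels, the unmasked OE list was called at p below 0.005, a laxer limit than the 0.0025 given for CT and KD, while the methods name 0.005 for all unmasked lists. How far the limit accounts for the OE peaks was not tested. The RM lists, called at 0.001 by the labels, held 4 peaks for CT, 9 for KD and 6 for OE, or 6.70, 15.1 and 10.1 per megabase, against 8.37, 7.61 and 6.60 over the main chromosomes. KD was the highest of the 3 RM lists at these genes, although its list of 24418 peaks was shorter than the 26635 of CT. With the widest 20000 peaks of each RM list the counts were 4 in CT and 6 in each of KD and OE, so KD no longer stood above OE.

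Of the 7 genes, 5 had an unmasked CTCF peak in their window in CT, 6 in KD and 7 in OE. Among the 38912 protein-coding and lncRNA genes, 65.0% had one in CT, 71.4% in KD and 68.8% in OE, so the counts were near the background. The windows overlap, so neighbouring genes share peaks. KCNQ1OT1 had a peak in OE alone, and PHLDA2 had an unmasked peak in KD and OE but not in CT. In each RM list 5 of the genes had a peak; KCNQ1OT1 and CDKN1C had none.

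**Figure D1:**
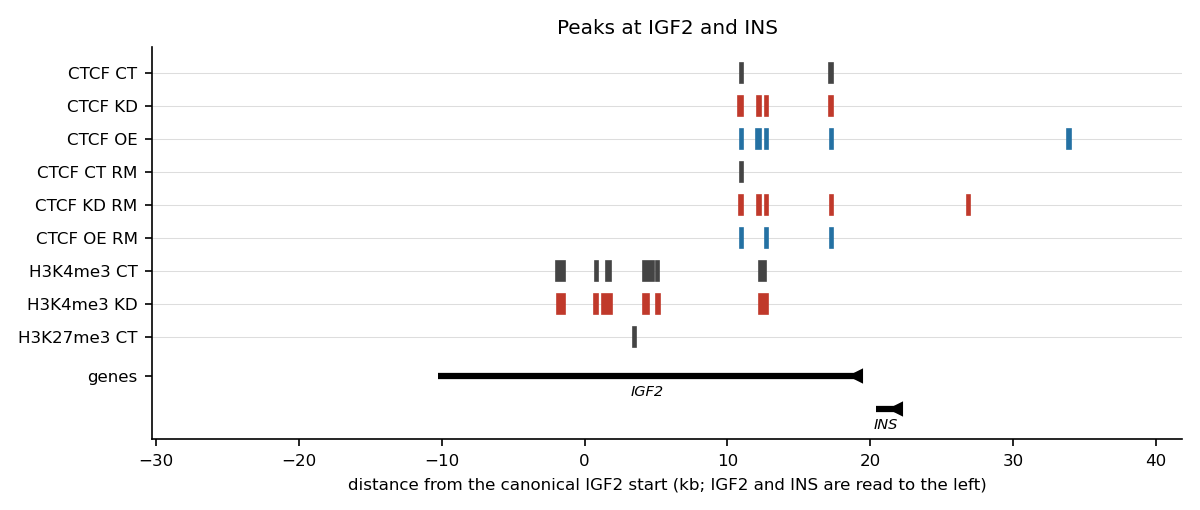
Peaks of each list (rows) at IGF2 and INS, placed by distance in kb from the canonical IGF2 start; blocks are peaks (narrow ones widened to stay visible), arrowheads mark the outermost starts, and H3K9me3, H3K27me3 in KD and input are left out because they had no peak. The leftmost CTCF place, 10.9 kb upstream of the canonical start, is in all 6 lists, and the next pair is in KD and OE lists but in neither CT list.

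IGF2 is transcribed from several promoters spread over its gene body (chr11:2129112-2158391, minus strand), with 10 annotated starts. CTCF peaks sat at 4 places in its introns, all upstream of the canonical start. Place 1 was covered at chr11:2150268-2150480 in CT, chr11:2150165-2150460 in KD and chr11:2150269-2150480 in OE. In CT this peak was centred 795 bp upstream of the IGF2 start at 2149579, and it was the nearest CTCF peak to any start among the 7 genes. It was 213 bp wide for CT, 296 bp for KD and 212 bp for OE, and no base of it belonged to a repeated 24-mer (at least 10 occurrences in the genome).

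Places 2 and 3 were listed in KD and OE and not in CT. Place 2 spanned 289 bp (KD) and 322 bp (OE). Place 3 was narrower, with 214 bp for KD and 231 bp for OE. Place 2 was also in KD RM, and place 3 in KD RM and OE RM. Both overlapped an H3K4me3 peak that was listed in CT (509 bp) as well as in KD (598 bp). At this intronic stretch, then, H3K4me3 was listed in CT and KD, and CTCF in KD and OE but not in CT.

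Place 4 lay 1690 bp downstream of the outermost cluster of IGF2 starts, with widths of 224 bp for CT, 268 bp for KD and 224 bp for OE. It was also in KD RM and OE RM, but not in CT RM. Its distance to the canonical INS start was 4452 bp for CT, 4430 bp for KD and 4444 bp for OE, which made it the CTCF peak nearest to insulin in all 3 unmasked lists.

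INS itself (chr11:2159779-2161221, minus strand) had no CTCF or histone peak in its gene body in any list. Upstream of it, KD RM alone listed a 200 bp peak on an exon of TH, the tyrosine hydroxylase gene, at chr11:2166175-2166374 (place 5). OE alone listed a 258 bp peak between genes at chr11:2173190-2173447 (place 6). Motifs of 18.21 and 17.99 bits lay under these peaks, scores close to that of place 10, which was in all 6 lists.

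**Figure D2:**
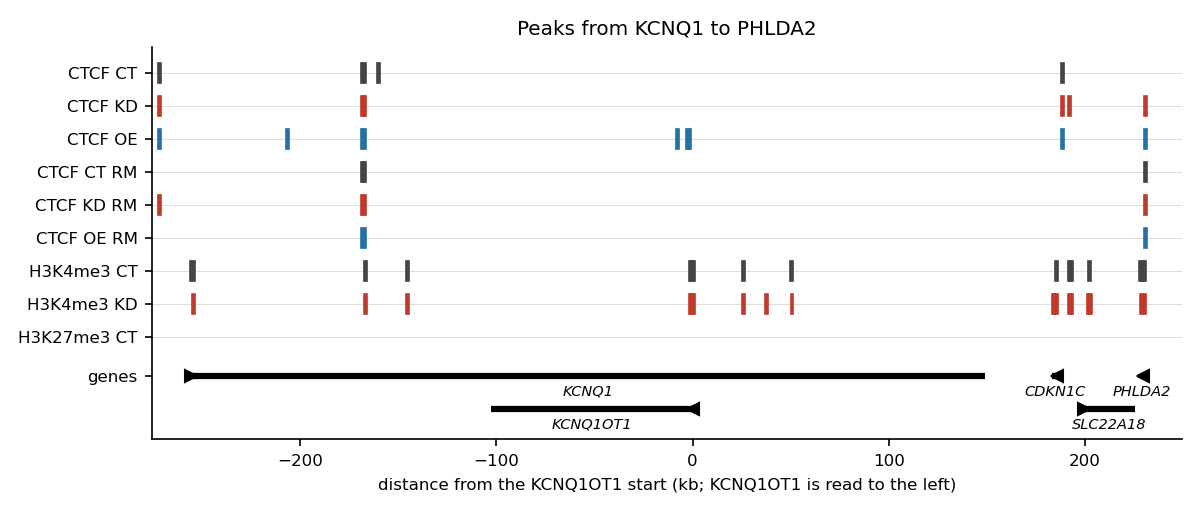
Peaks of each list (rows) from KCNQ1 to PHLDA2, placed by distance in kb from the KCNQ1OT1 start; blocks are peaks, widened to a visible minimum, so neighbouring peaks can merge. The pair inside KCNQ1 to the left of KCNQ1OT1 is in all CTCF lists, and the 3 CTCF peaks within 8 kb of the KCNQ1OT1 start are in OE only.

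KCNQ1 (chr11:2444654-2849105, plus strand) carried its steadiest CTCF peaks deep inside introns, 69689 bp (place 9) and 71038 bp (place 10) downstream of the nearest annotated start. Place 9 was 212 bp wide for CT, 209 bp for KD and 211 bp for OE. Place 10 was 380 bp, 368 bp and 402 bp wide, held 4 motifs, all on the plus strand, and overlapped an H3K4me3 peak of 1023 bp in CT and 978 bp in KD. The best motifs of the 2 places were 1282 bp apart, on the minus strand at place 9 and on the plus strand at place 10. Both places were also in all RM lists and contained no repeated 24-mer.

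Place 7, upstream of KCNQ1 in an intron of TRPM5, a cation channel gene, lay about 16.3 kb from the nearest KCNQ1 start. It was 287 bp wide for CT, 281 bp for KD and 387 bp for OE. It was in KD RM at 182 bp, but in neither of the other RM lists. Place 11 was the 1 place listed in unmasked CT alone, a 381 bp peak at chr11:2539991-2540371 with 3 motifs, and CT RM did not list it. Place 8, at chr11:2493394-2493606 in OE alone, was of another kind, since 91.5% of its bases lay in repeated 24-mers and it held no motif.

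The KCNQ1OT1 control region was taken as the CpG island over the KCNQ1OT1 start, computed from the genome sequence as chr11:2698899-2701005. It was 2107 bp long with 185 CpG, a GC content of 68.1% and an observed-to-expected CpG ratio of 0.759, and it reached 1104 bp below and 1002 bp above the start at 2700003. It contained 4 CTCF motifs, the best of 13.90 bits at chr11:2700284-2700297, and none of these lay under a CTCF peak. No CTCF list had a peak within the island.

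Outside the island, the distance to the nearest CTCF peak differed widely between the lists. It was 158528 bp in CT, to place 11, and 165770 bp in KD, to place 10, both inside KCNQ1. In OE it was 311 bp, to place 14. Other OE peaks followed on the same side, place 13 at 1234 bp and place 12 at 6250 bp. All 3 peaks lay on the KCNQ1OT1 transcript and in a KCNQ1 intron, and none was in CT, KD or any RM list. The laxer limit given for OE by the labels applies to each of them.

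The OE peak beside the island, at chr11:2698335-2698588 on the plus strand, is printed whole with its single motif in capitals, since it is the CTCF peak nearest to the control region in any list. It was 254 bp long, and it held 1 CpG.

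Place 14: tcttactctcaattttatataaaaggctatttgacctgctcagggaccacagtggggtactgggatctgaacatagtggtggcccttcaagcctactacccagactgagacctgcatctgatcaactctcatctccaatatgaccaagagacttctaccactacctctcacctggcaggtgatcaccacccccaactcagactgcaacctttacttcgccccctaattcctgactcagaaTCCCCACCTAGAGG
Place 12, plus strand, motif at chr11:2692528-2692541: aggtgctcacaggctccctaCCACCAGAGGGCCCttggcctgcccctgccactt

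The motif of place 14, on the minus strand, ended at the last base of the peak and scored 10.77 bits. Place 12 had a motif of 18.36 bits near its centre. Place 13 had none.

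**Figure D3:**
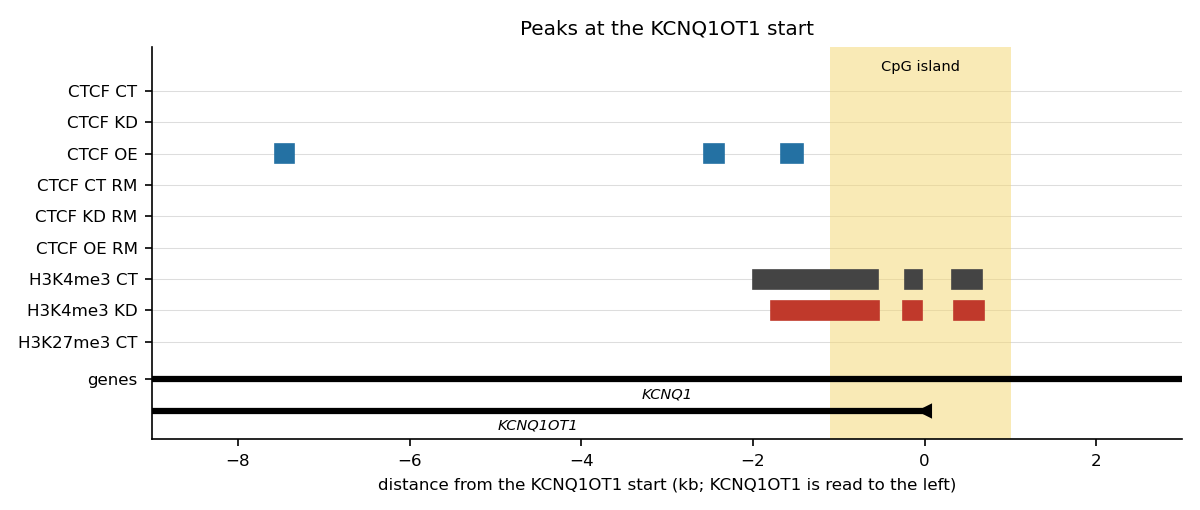
Peaks of each list around the KCNQ1OT1 start, by distance in kb from it, with the CpG island shaded. The 3 OE peaks (blue) sit outside the island on the side of the transcript, and 3 H3K4me3 peaks per condition reach into or lie in the island in both CT (grey) and KD (red).

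H3K4me3 peaks covered 1115 bp of the island in CT (52.9%) and 1154 bp in KD (54.8%), and the KCNQ1OT1 start itself lay between peaks in both. A broad peak on the transcript side ran over chr11:2698001-2699464 in CT (1464 bp) and chr11:2698211-2699473 in KD (1263 bp), which is the widest H3K4me3 peak of the 2 regions in either list. A peak ending 27 bp from the KCNQ1OT1 start in CT and 29 bp in KD was 201 and 224 bp wide. The third, upstream of the start, was 348 bp in CT and 355 bp in KD. Over the KCNQ1OT1 window, CT and KD peaks covered 2013 and 1842 bp, and 86.1% of the bases covered in either were covered in both, the highest share among the 7 windows. OE place 14 fell under the broad peak of both conditions. H3K4me3 was not mapped in OE.

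The CDKN1C, SLC22A18 and PHLDA2 windows need a caution on mapping. A 297 kb alternate sequence of chromosome 11 in hg38 repeats chr11:2767814-2979420. It holds 97.3% of the CDKN1C window, 91.4% of PHLDA2, 93.5% of SLC22A18 and 22.5% of KCNQ1, and none of IGF2, INS or KCNQ1OT1. Reads from these genes can be placed on either copy, so a peak missing from chromosome 11 can be listed on the alternate copy. The peaks on it that match these windows are given with the results for each gene.

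CDKN1C (chr11:2883213-2885775, minus strand) had 1 CTCF peak upstream of it in CT, KD and OE. Place 15 was 256 bp wide for CT, 315 bp for KD and 302 bp for OE, on an exon of the antisense gene SLC22A18AS, and centred 2786 bp upstream of the CDKN1C start over the lists. No RM list held it. KD alone added place 16, 271 bp wide and under an H3K4me3 peak of both conditions, 6475 bp upstream of CDKN1C. KD also had a CTCF peak at the matching place of the alternate copy (223 bp), and neither CT nor OE had one there. A CT RM peak of 211 bp on the alternate copy matched chr11:2880772-2880982, downstream of CDKN1C, where no list had a peak on chromosome 11.

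PHLDA2 (chr11:2928273-2929420, minus strand) had place 17 just upstream, at 563 bp in KD and 301 bp in OE with no unmasked peak in CT. The nearest edge was 1031 bp from the PHLDA2 start in KD and 1318 bp in OE, while the nearest unmasked CT peak was 40771 bp away. The RM lists included CT at this place, with widths of 211 bp for CT, 229 bp for KD and 171 bp for OE. On the alternate copy, KD and OE listed it again in both unmasked and RM form, and CT in neither. The unmasked absence in CT therefore was not shared by CT RM, where the peak edge lay 1405 bp from the start.

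**Figure D4:**
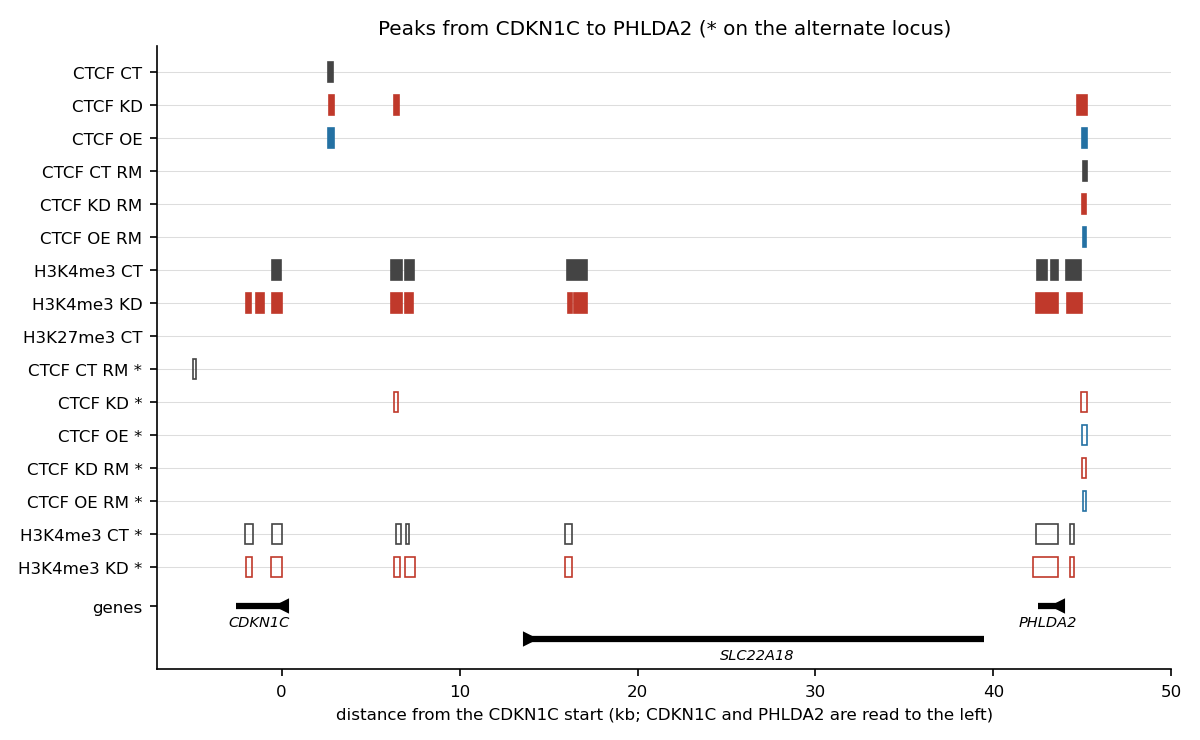
Peaks of each list (rows) from CDKN1C to PHLDA2 by distance in kb from the CDKN1C start; filled blocks are chromosome 11 peaks and open blocks, in rows marked with an asterisk, are peaks on the alternate copy at their matching position. The CTCF peak near 45 kb is missing from the unmasked CT row but present in the CT RM row.

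CTCF peaks of CT that overlapped a peak of KD were 6 of 7, and the same 6 overlapped OE. Place 11 was the exception in both comparisons. Over the whole lists, 49.8% of CT peaks had no overlap in KD and 53.5% had none in OE, so at these genes fewer CT peaks were without a partner than the background share. Of the 10 KD peaks, 4 had no overlap in CT (places 2, 3, 16 and 17), against 54.8% of all KD peaks. Of the 14 OE peaks, 8 had none in CT (places 2, 3, 6, 8, 12, 13, 14 and 17), against 57.6% of all OE peaks, which is near that share. Of the KD peaks, 1 of 10 had no overlap in OE (place 16), against 38.5%, and 5 of 14 OE peaks had none in KD, against 37.9%. In the RM lists all 4 CT peaks overlapped KD, against 45.6% of all CT RM peaks without overlap, and 5 of 9 KD peaks had none in CT, against 40.6%.

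At 15 of the 17 places no base belonged to a 24-mer with at least 10 genomic occurrences, places 7 and 8 being the others. This measure finds high-copy words only and was not computed over all peaks. Of the unmasked peaks, 3 of 7 in CT, 8 of 10 in KD and 6 of 14 in OE overlapped an RM peak of the same condition, where 34.9%, 47.6% and 39.7% of all unmasked peaks did. The KD share stood above its background, and the CT and OE shares were close to theirs. An H3K4me3 peak of the same condition overlapped 1 of 7 unmasked CTCF peaks in CT (place 10) and 5 of 10 in KD (places 2, 3, 10, 16 and 17). Over the whole lists 26.6% of CT peaks and 33.1% of KD peaks did so.

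A motif lay under 7 of 7 CT peaks, 10 of 10 KD peaks and 12 of 14 OE peaks. The background shares were 47.2% of all CT peaks, 67.4% of KD and 57.8% of OE. In the 2 regions, 31.1% of consecutive 250 bp windows held a motif at this score, and 5.40% held one at 13.2 bits or more. Over the stricter score, 6 CT peaks, 8 KD peaks and 9 OE peaks had a motif. The share of all CTCF peaks with a motif at that score was not computed, so these counts have no background. The regions held 1039 motifs in all, of which 27 lay under a CTCF peak of any list, so most motif matches carried no peak.

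An H3K4me3 peak lay within 1 kb of an annotated start at 6 of the 7 genes in CT and in KD, with INS the exception in both. The background was 53.3% of genes in CT and 54.1% in KD. A CTCF peak lay that close at 1 gene only, IGF2, in each of the 6 lists, against 10.8% of genes in unmasked CT, 15.2% in KD and 13.8% in OE, which is near the background. The nearest H3K4me3 peak to the canonical start was 697 bp away in CT and 692 bp in KD at IGF2, and 9092 and 9004 bp away at INS. At KCNQ1 the distances were 315 and 312 bp, at CDKN1C 18 and 7 bp, and at PHLDA2 31 and 27 bp. At SLC22A18 the peak covered the start in both.

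The neighbouring genes of the band were counted in the same way, but they share peaks with the genes above and are not a separate set. Of 14 neighbours, 9 had an H3K4me3 peak within 1 kb of a start in CT and KD, namely IGF2-AS, ASCL2, CD81, TSSC4, TRPM5, SLC22A18AS, NAP1L4, CARS1 and OSBPL5. TH, INS-IGF2, C11orf21, TSPAN32 and KCNQ1DN had none. The background was 53.3% of genes in CT and 54.1% in KD. The nearest H3K4me3 peak to the canonical SLC22A18AS start, 871 bp away in CT and 878 bp in KD, was that of SLC22A18. For TRPM5 in KD it was the KCNQ1 peak, 806 bp away. For IGF2-AS it was a peak within IGF2, 180 bp away in CT and 112 bp in KD. INS-IGF2 has the same canonical start as INS. An unmasked CTCF peak lay that close at 3 of 14 in CT (TSSC4, SLC22A18AS and OSBPL5) and at 2 of 14 in KD and OE (TSSC4 and SLC22A18AS). The background was 10.8% of genes in CT, 15.2% in KD and 13.8% in OE, so the KD and OE counts were near it. The SLC22A18AS peak in CT was place 15. The canonical starts of SLC22A18AS and OSBPL5 were 15164 and 39490 bp from the nearest CT peak, so other starts were counted there. TSSC4 was the 1 neighbour with such a peak in all 6 lists, with its edge 149 to 224 bp from the canonical start.

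H3K4me3 had the most peaks of the 3 marks at these genes, and also the longest lists, with 76814 peaks in CT and 81932 in KD. The regions held 22 peaks in CT and 24 in KD, or 36.9 and 40.2 per megabase, against 24.8 and 26.4 over all of chromosome 11. The regions are built on genes and the whole chromosome is not, and no rate over other gene windows was computed. Overlap with KD was found for 21 of the 22 CT peaks and with CT for 21 of the 24 KD peaks, where 14.1% of all CT peaks and 19.3% of all KD peaks had no overlap. The peaks covered 12274 bp in CT and 13732 bp in KD, with 11056 bp in common, or 74.0% of the bases covered in either.

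The H3K4me3 peaks fell at 24 places, 23 of them over a CpG island. The share of all H3K4me3 peaks over such an island was not computed, so this count has no background. Of the 24 places, 20 were in both conditions. At those 20, KD covered more bases at 12 and CT at 8, and the median ratio of KD to CT was 1.02, with a range of 0.590 to 2.40. Over all 63988 common places of the genome, 51.2% were wider in KD, and the ratio ran from 0.624 at the 5th percentile to 1.68 at the 95th. The highest ratio came from a KCNQ1 intron, with 345 bp in CT and 827 bp in KD. The next lay at an IGF2 start, with 354 bp in CT and 704 bp in KD. The lowest was also in IGF2, with 734 bp in CT and 433 bp in KD. These 3 of the 20 lay outside the range between the percentiles. That range leaves out some places at either end by definition, so the count does not set these genes apart.

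**Figure D5:**
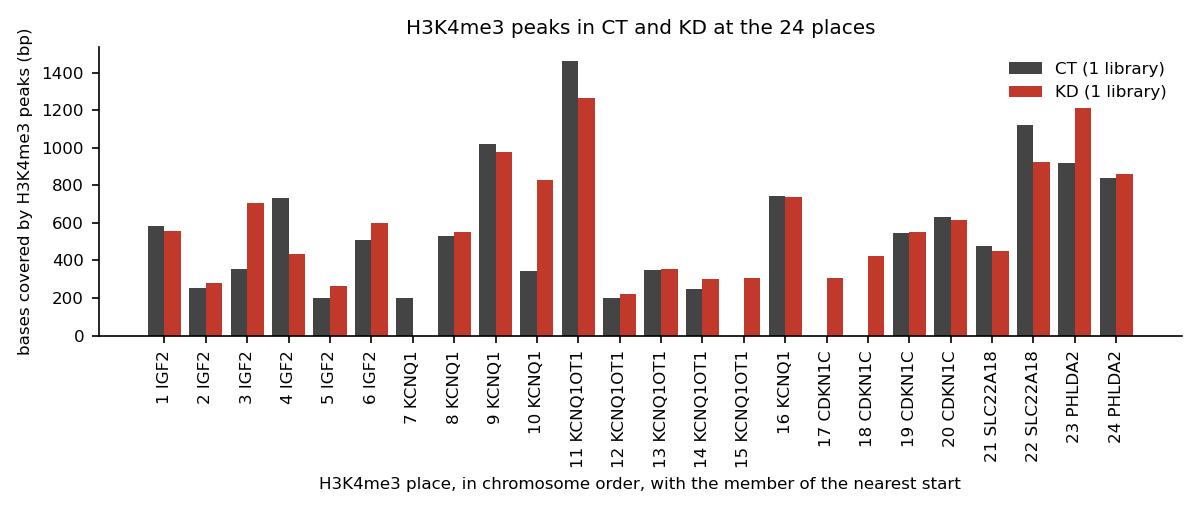
Bases covered by H3K4me3 peaks (bp) in CT (grey) and KD (red) at each of the 24 places, in chromosome order and labelled by the gene of the nearest start; a missing bar means no peak, and there is 1 library per bar. The tallest pair is the peak that reaches into the KCNQ1OT1 control region, and 2 of the 3 places with a KD bar alone are at CDKN1C. At 1 of these, CT had a peak on the alternate copy, which is not drawn here.

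The H3K4me3 places listed in 1 condition were few. CT alone had a 202 bp peak at chr11:2444324-2444525, which covered the canonical TRPM5 start and lay 230 bp upstream of KCNQ1. In KD the nearest H3K4me3 peak to that TRPM5 start was 806 bp away, at KCNQ1. KD alone had a 306 bp peak in a KCNQ1 intron at chr11:2737584-2737889, upstream of the control region. The other KD places were in CDKN1C, at chr11:2883773-2884078 (306 bp) and chr11:2884356-2884781 (426 bp), both on its coding sequence. At the first of these, CT had a 431 bp peak and KD a 326 bp peak on the alternate copy, so H3K4me3 was listed in both conditions once that copy was counted. The second had no peak of either condition there. The CDKN1C start itself had H3K4me3 of 548 bp in CT and 551 bp in KD. The alternate copy listed it again, at 553 and 638 bp. SLC22A18, at its canonical start, had 1120 bp in CT and 927 bp in KD, with 389 and 367 bp beside that start on the alternate copy. The PHLDA2 body had 919 bp in CT and 1213 bp in KD, and on the alternate copy 1246 and 1400 bp. The alternate copy also listed H3K4me3 in CT and KD at the pair of places between CDKN1C and SLC22A18 (250 and 364 bp, then 201 and 584 bp) and upstream of PHLDA2 (228 bp in each).

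The repressive marks were almost absent. The only H3K27me3 peak was in CT at chr11:2142769-2142933, 165 bp in an IGF2 intron and 1613 bp upstream of an IGF2 start. It lay in the windows of 2 of the 7 genes, IGF2 and INS, where 4.85% of all genes had an H3K27me3 peak in CT. In KD none of the 7 had one, against 3.23% of all genes. No window had an H3K9me3 peak on chromosome 11 in CT or KD, while 23.9% of all genes had one in CT and 11.1% in KD. On the alternate copy, CT had an H3K9me3 peak of 161 bp that matched chr11:2822054-2822214 in a KCNQ1 intron. The whole lists were short, with 6003 and 4804 H3K27me3 peaks and 14546 and 8356 H3K9me3 peaks in CT and KD, so a lack of peaks does not show a lack of the mark. The labels and the methods give the H3K9me3 and H3K27me3 antibodies the other way round, and the lists are named here as labelled. The input list of 2676 peaks had none in either region.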

How the data were processed

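The deposited files were peak lists with chromosome, start and end in bp (unit: other, genome positions as deposited by the authors) and no signal, score or read count, so read depth per peak is unknown. Per the labels and the methods, the authors sequenced single-end Ion Torrent libraries, aligned the reads to hg38 or repeat-masked hg38 with Bowtie2 and called peaks with MACS2 in each library separately. Versions were not given in the sources used here. The 10 libraries gave 13 lists, since each CTCF library had an unmasked and an RM list, and all 13 were used; lists of peaks exclusive to 1 condition, made by the authors from these, were not used. 7 peaks in 4 lists ended past the reference sequence, none of them in the regions.

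Starts were taken as counted from 0 and written from 1. Genes came from GENCODE release 44. Peaks overlapped if they shared at least 1 bp. The CTCF matrix (14 columns) was learned from 12859 RM CT peaks that overlapped RM KD and RM OE peaks, and was tested on simulated data. CpG islands were merged windows of 200 bp with GC of at least 50% and an observed-to-expected ratio of at least 0.6, joined over gaps under 100 bp. Repeats were 24-mers with at least 10 genomic occurrences. With 1 library per condition no test was run. All 7 genes were described, every CTCF peak was described, and 14 neighbours were counted. Genes and lists were chosen with earlier results of these data known. Alternatives were other flanks, transcripts, widths, overlaps, motif scores, start distances and island rules. Python 3.11.15, pysam 0.24.0, numpy 2.4.6, samtools 1.23.1 and matplotlib 3.10.9 were used.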

Additional observations from a re-analysis of the deposited data

How the results depend on the processing

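Of 99 alternative counts, 89 stayed within 1.5 times the reported count and 10 did not; all 6 alternative distances differed from the reported ones, within 1.5 times. With a flank of 50 kb the CTCF count was 12 for CT, 17 for KD and 15 in KD RM, and the OE count of 17 equalled that of KD. With the widest 20000 peaks of each list it was 2 for CT, 3 for KD and 5 for OE, in the reported order, while KD RM and OE RM were then equal at 6. With the wider peaks of each list, split at the median width, H3K4me3 peaks numbered 10 in CT and 13 in KD, and the H3K27me3 count in CT was 0. Counting the alternate copy, chosen after seeing the data, gave 1 H3K9me3 peak in CT. It also gave 5 CTCF peaks in CT RM in place of 4, and 23 H3K4me3 peaks in CT in place of 22. The other lists counted this way, all those of KD and OE among them, did not change. The distance from the control region to the nearest CTCF peak was 158467 bp for CT, 165709 bp for KD and 250 bp for OE with a 500 bp island rule, and 158632, 165874 and 415 bp with 1 kb on each side of the start. Removing peaks that overlapped input could change no count, because the input list had no peak in either region. Those settings are still counted among the alternatives that stayed within 1.5 times. No paired analysis was possible because each condition had 1 library. Without replicates, scores or depth, a peak in 1 list and not in another may lie close to the calling limit in both, which the lists cannot show.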
